A study of Mus musculus with 6 samples.

Results

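The genes described here encode the machinery of glycolysis and of the response to low oxygen. They were read in mouse embryos taken whole at embryonic day 8.5. The list named 38 genes: 4 transporters of glucose or lactate, 15 glycolytic enzymes, 3 regulators of glycolytic flux, 6 components of the hypoxia-inducible factor (Hif) pathway and 10 targets of Hif outside glycolysis. A gene was read from probe sets, the groups of short oligonucleotides that give 1 signal each, when the array annotation gave that gene and no other. By this rule 35 genes were measured on 78 probe sets, of 18193 named genes and 45037 probe sets in all. Gpi1 (glucose-6-phosphate isomerase) and Eno1 (enolase) had no such probe set in the annotation used here, and Bnip3l (a mitophagy receptor) shared all 3 of its probe sets with a pseudogene. The member listed as Ero1l is annotated under its current symbol, Ero1a. Where a gene had several probe sets, it is represented by the one with the highest mean over the 6 arrays.

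The embryos were 3 wild types and 3 littermates heterozygous for a mutant allele of Tcof1 (Tcof1+/-), which encodes treacle, a nucleolar protein of ribosomal RNA synthesis. Each embryo was amplified from 100 ng of total RNA in 2 cycles and hybridised to an Affymetrix Mouse Genome 430 2.0 array of its own. The sources used here do not give the design of the mutant allele, the genetic background or the somite number of each embryo. Because whole embryos were used, fewer cells of a type and less RNA per cell cannot be told apart in any result below.

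Glycolysis turns glucose into pyruvate and yields ATP without oxygen, and lactate dehydrogenase then turns pyruvate into lactate, which leaves the cell through monocarboxylate transporters. When oxygen is short, the prolyl hydroxylases of the Egln family stop marking Hif alpha subunits for destruction by the Vhl ubiquitin ligase, and the alpha subunit pairs with Arnt to switch on genes that hold a hypoxia response element. Many glycolytic enzymes are themselves Hif targets. Embryos at this stage, before the placental circulation is established, are known for high rates of glycolysis and for a low oxygen environment.

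The core of the hypoxia response element is A or G followed by CGTG. Only the form ACGTG was searched, on both strands, in the 250 bases before each annotated start site (RefSeq, GRCm38.p6). The form GCGTG was not counted, so a gene without a site here may still hold it. The overlapping matches of the palindrome CACGTG, which is also an E-box, were counted as 1 site. Of the 38 genes 35 had a promoter in the table, and 21 of these (60%) held a site in at least 1 start site's window. Among all 27025 genes in the table, 18.5% did. Sites were found in 3 of 3 transporter genes, 7 of 15 enzyme genes, 1 of 3 regulator genes, 3 of 5 Hif pathway genes and 7 of 9 Hif target genes. The motif holds a CG dinucleotide, and the member windows had a median of 14 of these against 6 in all windows. Among windows with at least 14 the site was present in 62.1% of the member windows and in 25% of all windows. A match is a description of the letters and does not show binding.

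Promoter stretches are shown for Ldha and Pgk1, textbook Hif targets of glycolysis, with the motif in capitals. The Ldha stretch (chr7:46845554-46845803, plus strand) has sites that begin 145, 48 and 34 bases before the start, and the Pgk1 stretch (chrX:106186850-106187099, plus strand) has sites 150 and 131 bases before it.
Ldha: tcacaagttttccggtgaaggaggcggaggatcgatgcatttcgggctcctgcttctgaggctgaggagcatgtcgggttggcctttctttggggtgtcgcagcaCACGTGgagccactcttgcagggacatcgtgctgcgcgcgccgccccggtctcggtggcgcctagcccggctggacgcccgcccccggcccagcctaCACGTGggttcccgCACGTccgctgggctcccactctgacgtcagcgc
Pgk1: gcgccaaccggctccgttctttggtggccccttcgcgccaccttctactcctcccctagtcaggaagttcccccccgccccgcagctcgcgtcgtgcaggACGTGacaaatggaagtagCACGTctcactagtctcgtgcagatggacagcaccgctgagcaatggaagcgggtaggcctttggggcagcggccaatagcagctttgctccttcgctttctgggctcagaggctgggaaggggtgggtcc

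Stretches are also shown for the lactate transporter genes Slc16a1 and Slc16a3, whose signals in the mutants lay on opposite sides of the wild type, and for Hk2, the hexokinase gene known to respond to hypoxia. Slc16a1 (chr3:104638414-104638663, plus strand) has 1 palindromic site 200 bases before the start, Slc16a3 (chr11:120948817-120949066, plus strand) has sites 27 and 14 bases before it, and Hk2 (chr6:82774455-82774704, minus strand) has sites 226 and 52 bases before it.
Slc16a1: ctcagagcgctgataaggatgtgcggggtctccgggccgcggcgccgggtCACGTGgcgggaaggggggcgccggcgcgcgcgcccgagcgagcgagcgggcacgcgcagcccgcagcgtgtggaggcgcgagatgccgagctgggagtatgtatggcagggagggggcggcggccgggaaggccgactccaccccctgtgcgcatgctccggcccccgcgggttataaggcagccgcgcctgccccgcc
Slc16a3: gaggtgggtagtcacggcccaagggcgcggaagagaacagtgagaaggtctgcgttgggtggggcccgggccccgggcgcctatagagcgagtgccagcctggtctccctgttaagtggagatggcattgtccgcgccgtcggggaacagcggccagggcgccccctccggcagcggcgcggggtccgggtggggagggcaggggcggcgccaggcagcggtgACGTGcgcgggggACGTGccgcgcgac
Hk2: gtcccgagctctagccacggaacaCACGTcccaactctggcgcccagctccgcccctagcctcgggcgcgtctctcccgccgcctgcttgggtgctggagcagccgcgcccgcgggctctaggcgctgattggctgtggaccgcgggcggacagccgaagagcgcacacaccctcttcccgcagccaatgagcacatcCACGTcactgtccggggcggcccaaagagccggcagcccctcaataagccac

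The deposited signals were linear and in arbitrary units, with a 2% trimmed mean of 150 on every array. Array medians were 21.0 to 25.6. Replicates 1 and 2 of both genotypes were scanned on day 1 and replicate 3 of both on day 2, and each fluidics module (the unit that washes and stains an array) held 1 genotype, so module and genotype cannot be told apart. Tcof1 was at 382, 393 and 387 in the wild types and at 222, 179 and 231 in the heterozygotes (limma, log2 difference -0.88, SE 0.12, adjusted p = 0.0352, where adjustment is by Benjamini-Hochberg over all 27022 probe sets tested). This call was lost with scan day as a block (limma adjusted p = 0.0906) and with the replicate number as a block (adjusted p = 0.182 in limma). It was also lost without any 1 array (0.0586 to 0.190 in limma), while the genotypes did not overlap. These values are from the brightest probe set of Tcof1. The dimmer ones differed by -0.70 and -0.61, also without overlap, and did not pass (limma adjusted p = 0.385 and 0.582). Markers of neural tube, heart, somites, primitive erythroid cells and yolk sac endoderm were present, and the 6 measured trophoblast and decidua markers, of 8 listed, summed to 209 to 248 in wild types and 241 to 314 in heterozygotes. Of these Plac1 and Hand1 were tested and differed by 0.29 and 0.25, with overlap, while Tpbpa, Prl8a2, Igfbp1 and Prap1 were too dim to be tested. Xist was at 1520 to 2358 in wild-type embryos 1 and 2 and heterozygous embryo 1 and at 25.1 to 33.6 in the other 3 embryos. The Y-linked gene Eif2s3y was at 0.36 to 7.09 in the former and at 491 to 555 in the latter. By these signals the former were female and the latter male, so sex was not balanced between the genotypes. For RNA quality, the signal of the 3 prime end of Gapdh minus that of its 5 prime end was 0.84 to 1.04 (log2) in wild types and 0.68 to 0.81 in heterozygotes. The genotypes did not overlap in this measure, and its part in the results below was not tested.

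The main question was whether heterozygous embryos differed from wild types in these genes. None of the members passed the threshold. Of 34 members bright enough to be tested, 0 had a limma adjusted p under 0.05, where 0.0814% of all tested probe sets did (0.0777% higher and 0.0037% lower in heterozygotes), and the smallest adjusted p among them was 0.631. At an unadjusted p under 0.05, 1 member was higher and 4 were lower, against 3.01% and 3.21% of all tested probe sets. These 5 members were also the ones whose 3 heterozygotes all lay on 1 side of all 3 wild types: Slc16a1 above, and Slc16a3, Tpi1, Pdk1 and Vegfa below. Over all tested probe sets 6% lay above and 6.18% below without overlap. Heterozygotes were on average lower for 23 of the 34 and higher for 11, and the median over the members was -0.06 (log2), beside 49.1% negative and a median of 0.00 over all tested probe sets.

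**Figure D1:**
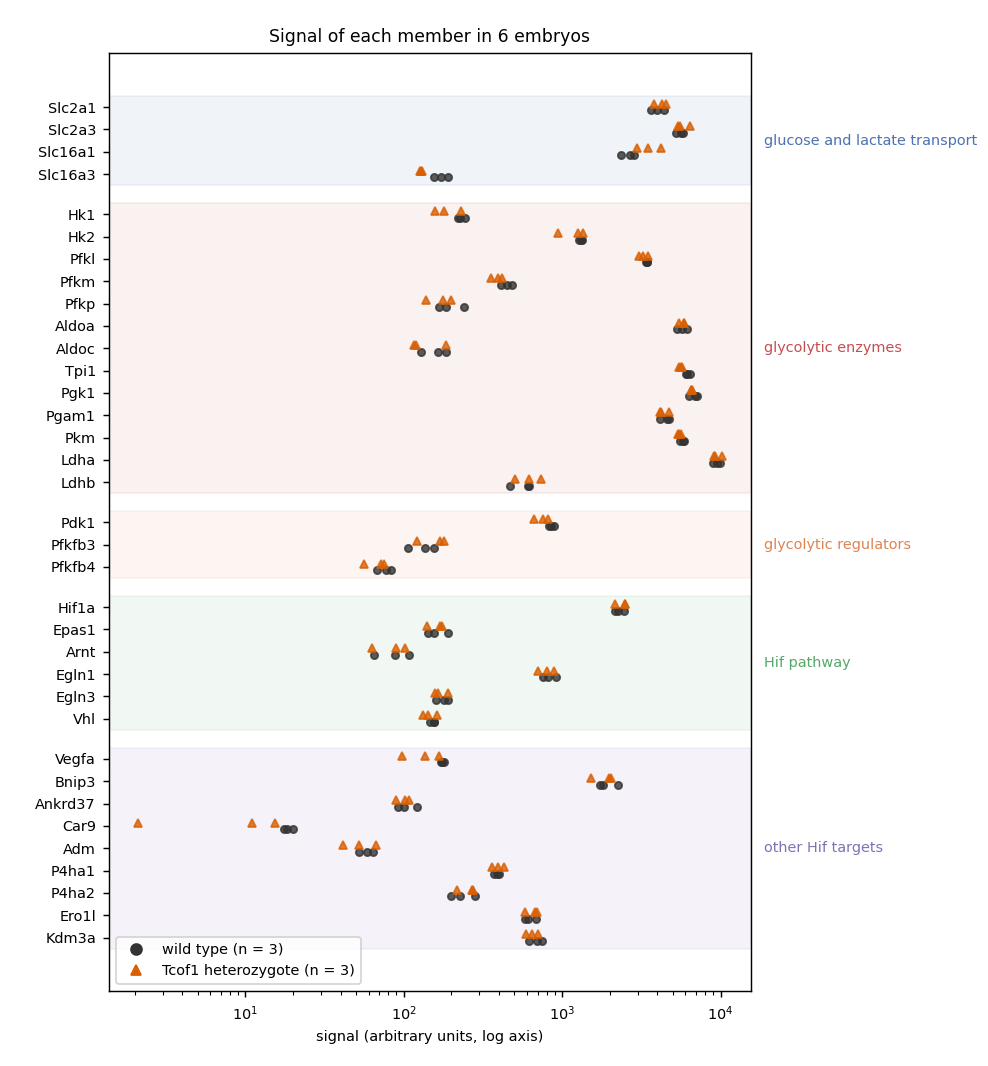
Signal of the 35 measured members in each of the 6 embryos (horizontal log axis, arbitrary units; circles, wild type; triangles, heterozygotes), grouped by role. The symbols of the genotypes overlap for most members, and Car9 is the dimmest, at 2.10 to 19.9.

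The precision of these arrays allowed bounds to be set on many members. The 95% interval of the difference lay within 1.25-fold in both directions for 14 of 34 members, and for 17.5% of all tested probe sets. Bright probe sets varied less than dim ones: of the 13 members with a mean at or above that of a signal of 1000, 10 had such an interval, and 78.7% of the 2429 tested probe sets this bright did. Within 1.5-fold lay 26 members, against 48.4% of all tested probe sets. At or above a signal of 1000 these were 12 of 13 members and 2371 of 2429 tested probe sets.

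**Figure D2:**
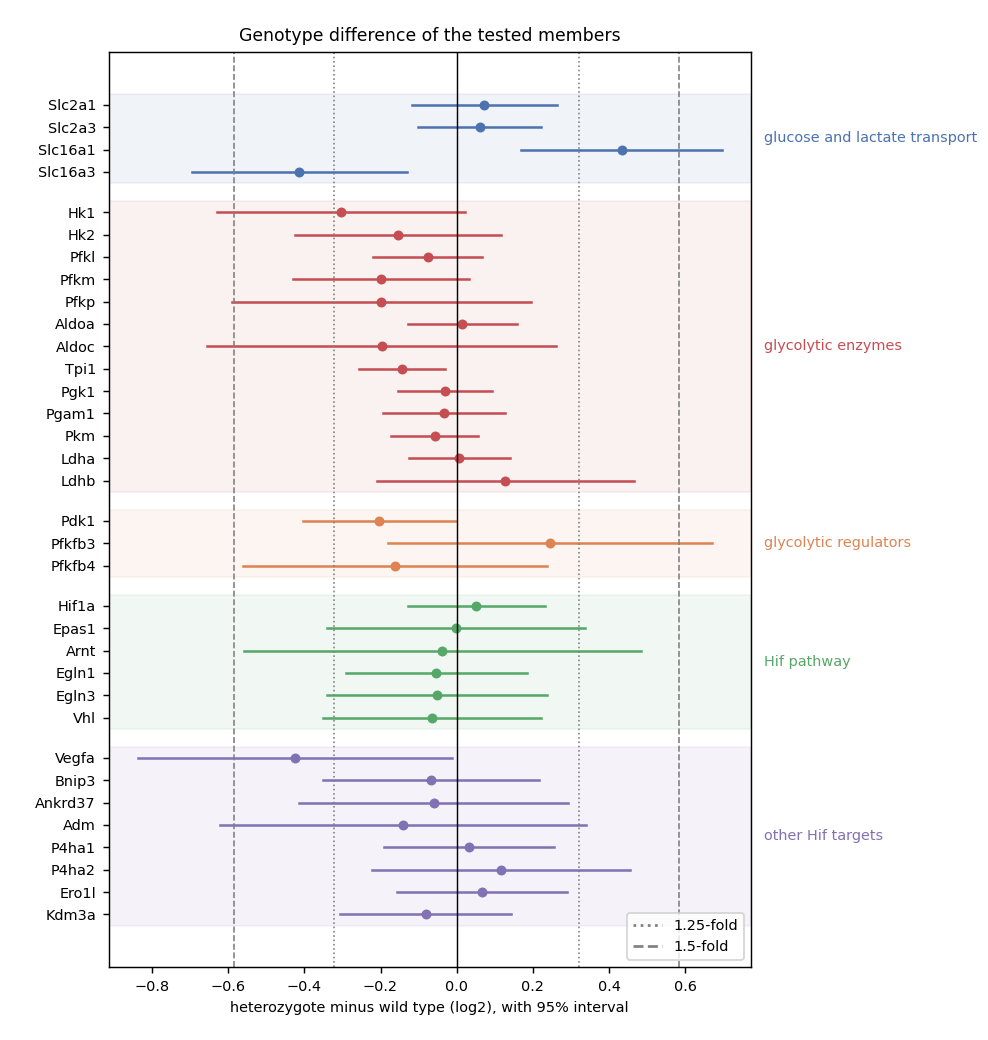
Log2 difference, heterozygote minus wild type, with its 95% interval from limma for the 34 tested members, grouped by role; dotted and dashed lines mark 1.25-fold and 1.5-fold. The intervals of Slc16a1, Slc16a3, Tpi1, Pdk1 and Vegfa leave out 0, and none of the 5 passed after adjustment.

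Glucose enters the embryo's cells through the facilitative transporters encoded by Slc2a1 (Glut1) and Slc2a3 (Glut3), and neither gene passed the test. Slc2a1 was at 3997, 3617 and 4371 in wild types and at 4535, 4253 and 3809 in heterozygotes, and the genotypes overlapped. Its log2 difference was 0.07, with a 95% interval from -0.12 to 0.26. It was 0.21 on day 1 and -0.20 on day 2, and 0.0027 without wild-type embryo 2. All 3 of its probe sets gave differences of 0.05 to 0.11 over all embryos. Slc2a3 ranged from 5217 to 5756 in wild types and from 5399 to 6385 in heterozygotes, and its 4 probe sets gave differences of 0.03 to 0.07.

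The 2 lactate transporter genes lay on opposite sides of the wild type. Slc16a1, which encodes the monocarboxylate transporter Mct1, was at 2344, 2846 and 2675 in wild types and at 4204, 2990 and 3494 in heterozygotes. Every heterozygote was above every wild type, embryo 1 by the most and embryo 2 by the least. The log2 difference was 0.43 (SE 0.12, limma adjusted p = 0.631), and its 95% interval ran from 0.17 to 0.70. Day 1 embryos alone gave 0.46 and day 2 embryos 0.39. The other tested probe set of Slc16a1, at a far lower signal, differed by 0.52 with overlap.

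Slc16a3 encodes Mct4, the lactate exporter known to be induced by Hif. It was at 173, 155 and 189 in wild types and at 129, 126 and 130 in heterozygotes. The heterozygotes lay close together and below every wild type. The log2 difference was -0.41 (SE 0.13, limma adjusted p = 0.685), with a 95% interval from -0.70 to -0.13. The embryos of day 1 gave -0.35 and those of day 2 gave -0.54, and Slc16a3 had 1 probe set.

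The signal of yolk sac endoderm markers differed widely between embryos of the same genotype. All 8 yolk sac markers were measured, and their summed signal was 1959, 10162 and 9083 in wild-type embryos 1, 2 and 3 and 16279, 865 and 9328 in heterozygous embryos 1, 2 and 3. Slc16a1 and Hk2, 2 of 34 members, had the same order of embryos as the mean log2 signal of these markers in both genotypes, a share near the 3.56% of all tested probe sets that did. With that mean as a covariate, added after seeing the data, the Slc16a1 difference was 0.46 (limma adjusted p = 0.0742). The Slc16a3 difference was then -0.41 (adjusted p = 0.715). With primitive erythroid markers as the covariate instead, also after seeing the data, Slc16a1 differed by 0.33 (limma adjusted p = 0.966). Slc16a3 then differed by -0.45 (limma adjusted p = 0.954). Slc2a2 (Glut2), a glucose transporter of the yolk sac endoderm from the wider glycolysis list, was named after its values were seen. Its signal followed the yolk sac markers, at 17.4, 216 and 206 in wild types and at 415, 2.83 and 176 in heterozygotes.

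**Figure D3:**
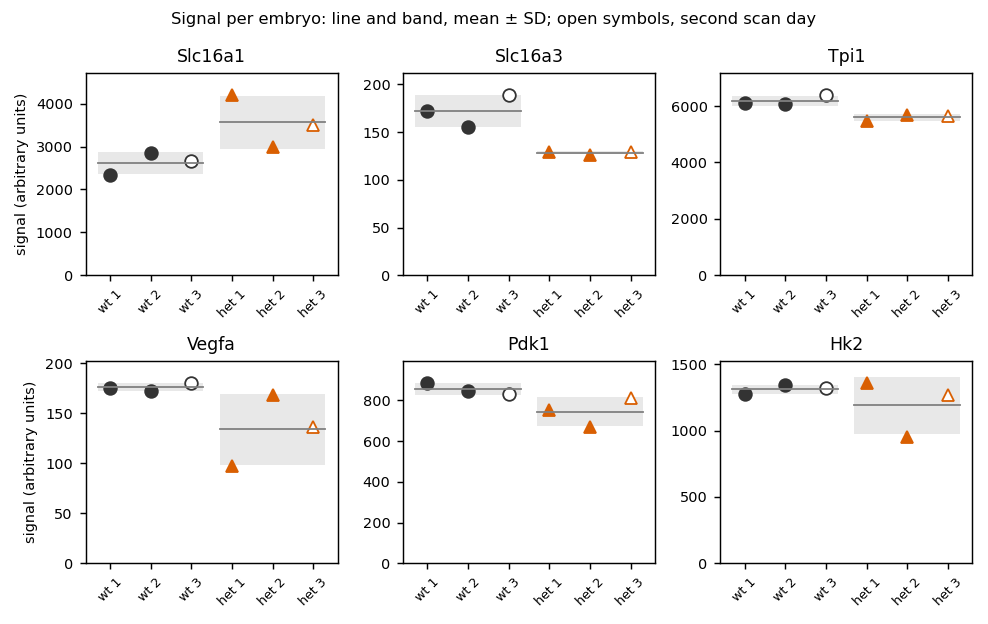
Signal in each embryo (arbitrary units, axis from 0) for 6 members: circles, wild type; triangles, heterozygotes; open symbols, second scan day; line and band, mean ± SD of 3 embryos. The genotypes do not overlap for Slc16a1, Slc16a3, Tpi1, Vegfa and Pdk1, and they overlap for Hk2, in which heterozygous embryo 2 was lowest at 948.

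Of the 13 measured glycolytic enzyme genes, all 13 were tested and 0 passed, with 10 negative and 3 positive differences and a median of -0.08. Early steps of the pathway are catalysed by hexokinases and phosphofructokinases. Hk1 was at 244, 226 and 222 in wild types and at 158, 179 and 229 in heterozygotes. Heterozygous embryos 1 and 2 lay below all wild types, and embryo 3 among them. The difference was -0.30 (SE 0.15, limma adjusted p = 0.801), with -0.48 on day 1 and 0.05 on day 2.

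Hk2 was at 1272, 1341 and 1317 in wild types and at 1359, 948 and 1266 in heterozygotes, a difference of -0.15 (SE 0.12). Only heterozygous embryo 2 stood apart, and without it the difference was 0.00. The genes of the 3 phosphofructokinase isoforms all gave negative differences on their brightest probe sets and none passed. The liver form, Pfkl, was at 3441, 3405 and 3439 in wild types and at 3228, 3500 and 3043 in heterozygotes (-0.08, 95% interval -0.22 to 0.07). The muscle form, Pfkm, was at 482, 413 and 446 against 418, 355 and 395 (-0.20, SE 0.10, adjusted p = 0.810 in limma), with 1 heterozygote above the lowest wild type. The platelet form, Pfkp, was at 185, 166 and 239 against 178, 198 and 138 (-0.20, SE 0.18); day 1 gave 0.10 and day 2 gave -0.79.

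The enzymes of the middle and lower pathway follow in their order. Aldoa, the main embryonic aldolase gene, ranged from 5327 to 6136 in wild types and from 5500 to 5921 in heterozygotes. Its brightest probe set differed by 0.01 and the other 4 by -0.15 to -0.09, and 3 of these 4 had every heterozygote below every wild type. Aldoc ranged from 128 to 185 and from 116 to 186, and differed by -0.20 with a wide interval from -0.66 to 0.26.

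Tpi1, which interconverts the triose phosphates, was at 6125, 6060 and 6396 in wild types and at 5463, 5693 and 5659 in heterozygotes. The genotypes did not overlap, although the step between them was small. The log2 difference was -0.14 (SE 0.05, limma adjusted p = 0.738), which corresponds to 0.905 of the wild-type level, and it was -0.13 on day 1 and -0.18 on day 2. The other 2 probe sets of Tpi1 differed by -0.05 and -0.05, with overlap.

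Pgk1, the first ATP-yielding enzyme of the pathway, was at 6328, 7084 and 6856 in wild types and at 6552, 6652 and 6619 in heterozygotes. The heterozygotes lay inside the range of the wild types. The difference was -0.03, with a 95% interval from -0.15 to 0.09, and the other 2 probe sets gave -0.02 with overlap and 0.11 with every heterozygote above every wild type (limma adjusted p = 0.793). Pgam1, phosphoglycerate mutase, differed by -0.03 (interval -0.19 to 0.13). Pkm, pyruvate kinase, was at 5545, 5790 and 5909 against 5494, 5664 and 5405 (-0.06, interval -0.17 to 0.06).

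Ldha, the lactate dehydrogenase subunit gene known as a Hif target, was at 9486, 8975 and 9869 in wild types and at 9122, 10170 and 9190 in heterozygotes. The genotypes overlapped almost completely. The difference was 0.01, with a 95% interval from -0.12 to 0.14, and its sign turned under quantile normalization (-0.04) and with equal array medians (-0.01). These signals were near the top of the scale, where the highest probe set of an array read 12323 to 13432. Ldhb, the heart-type subunit gene, ranged from 467 to 622 and from 505 to 732, and its 4 probe sets differed by 0.01 to 0.17.

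The 3 regulators act beside the main pathway, and 0 of 3 passed. Pdk1, a kinase that inhibits pyruvate dehydrogenase, was at 886, 848 and 831 in wild types and at 755, 667 and 810 in heterozygotes. All heterozygotes lay below all wild types, embryo 3 by a narrow margin. The difference was -0.20 (SE 0.09, limma adjusted p = 0.793) with -0.29 on day 1 and -0.04 on day 2. Of the other probe sets of Pdk1, the 2 brighter ones differed by -0.20 and -0.29 and the dimmest by 0.40. Pfkfb3, which makes the activator of phosphofructokinase, was at 106, 135 and 155 against 170, 180 and 121 (0.24, SE 0.19), and its related gene Pfkfb4 differed by -0.16 (SE 0.18). Pfkfb3 gave 0.54 on day 1 and -0.35 on day 2.

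On their brightest probe sets, transcripts of the Hif pathway itself gave differences of -0.06 to 0.05, and 0 of 6 passed. Hif1a, the oxygen-regulated alpha subunit, was at 2156, 2264 and 2470 in wild types and at 2160, 2506 and 2481 in heterozygotes. The range was nearly the same in both genotypes. The difference was 0.05, with a 95% interval from -0.13 to 0.23; it was -0.01 with Xist as a covariate, and the other 3 probe sets gave 0.00, -0.26 and -0.64, the last being the dimmest. Hif1a protein is regulated mainly through its stability, which arrays do not measure.

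Epas1 (Hif2 alpha) differed by -0.00 (interval -0.34 to 0.34) and Arnt, the beta subunit, by -0.04 (interval -0.56 to 0.48). Egln1, the main prolyl hydroxylase of the pathway, ranged from 754 to 916 in wild types and from 706 to 884 in heterozygotes (-0.05, SE 0.11). Egln3, a prolyl hydroxylase that is also a Hif target, was at 191, 180 and 160 against 164, 190 and 158 (-0.05, SE 0.13). Vhl, the recognition subunit of the ubiquitin ligase, ranged from 147 to 156 and from 133 to 163 (-0.06, SE 0.13). In each of these 5 genes the genotypes overlapped on the brightest probe set, and the dimmer probe set of Egln1 had every heterozygote below every wild type (-0.22, limma adjusted p = 0.812). The dimmer tested probe sets of Egln3 and Vhl differed by -0.53 and -0.18 and those of Arnt by -0.02 to 0.57, all with overlap.

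Among the other Hif targets 9 of 10 genes were measured, 8 were tested and 0 passed, with 5 negative and 3 positive differences and a median of -0.06. Vegfa, the vascular growth factor, was at 175, 172 and 180 in wild types and at 97.2, 168 and 136 in heterozygotes. The wild types lay close together, and the heterozygotes were spread below them with embryo 1 lowest. The difference was -0.42 (SE 0.18, limma adjusted p = 0.793), and it was -0.22 without heterozygous embryo 1. The dimmer probe set of Vegfa differed by -0.59 with overlap.

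Heterozygous embryo 1 was also the embryo with the least primitive erythroid signal. The 7 measured erythroid markers, of 8 listed, summed to 5828 to 13705 in wild types and to 339, 7443 and 11264 in heterozygous embryos 1, 2 and 3. With their mean log2 signal as a covariate, added after seeing the data, the Vegfa difference was -0.23 (limma adjusted p = 0.966). The part of these cells in the Vegfa result was not tested beyond this fit. In 0 of 34 members the embryos of both genotypes had the order of this mean erythroid signal, against 3.08% of all tested probe sets. The order was the exact reverse in 4 of 34, Slc2a1, Aldoc, Ldhb and P4ha2, against 2.86%. What this order reflects was not tested.

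Bnip3, a mitochondrial receptor for mitophagy, was at 1736, 1821 and 2242 in wild types and at 2049, 1974 and 1522 in heterozygotes. The highest embryo was wild-type embryo 3 and the lowest heterozygous embryo 3. The difference was -0.07 (SE 0.13) over all embryos, 0.18 on day 1 and -0.56 on day 2. Adm, the vasoactive peptide adrenomedullin, was at 58.3, 64.4 and 51.9 against 41.3, 66.5 and 52.2 (-0.14, SE 0.22). Car9, the membrane carbonic anhydrase that is a classical marker of hypoxic cells, had a mean log2 signal under the level of about 13.2 below which probe sets were not tested. It was listed at 17.6, 18.4 and 19.9 in wild types and at 11.01, 2.10 and 15.4 in heterozygotes, which lay below the wild types at signals where arrays are least precise.

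Kdm3a, a histone demethylase, and Ankrd37, an ankyrin repeat protein, differed by -0.08 and -0.06. The genes of collagen and disulphide chemistry, P4ha1, P4ha2 and Ero1l, differed by 0.03, 0.12 and 0.07. On the brightest probe set all 5 had overlapping genotypes, and the 95% intervals there reached at most 0.46 upward and -0.41 downward. A dimmer probe set of Ero1l had every heterozygote above every wild type (0.24, limma adjusted p = 0.810), with an interval up to 0.51.

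The sign of the difference was not the same on both scan days in most Hif targets. Of the 8 tested targets, 6 were higher in heterozygotes on the first day and lower on the second (75%, against 24.2% of all tested probe sets). The exceptions were Vegfa (-0.44, then -0.40) and Adm (-0.22, then 0.01). Over all members, these targets included, 16 of 34 turned in this way (47.1%), and 5 of 13 glycolytic enzymes did (38.5%). The median difference of the Hif targets was 0.12 among the 4 embryos of the first day and -0.34 between the 2 embryos of the second. The glycolytic enzymes had medians of -0.02 and -0.17 on these days, with 11 of 13 negative on the second. Without wild-type embryo 3 the median of the Hif targets was 0.04, and without heterozygous embryo 3 it was 0.04. The second day held 1 embryo of each genotype, so embryo and day cannot be told apart there.

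Wild-type embryo 3 gave the highest signal for 10 of the 34 tested members (29.4%, against 15.5% of all tested probe sets), and heterozygous embryo 3 gave the lowest for 11 (32.4%, against 14.3%). Relative to the mean over all embryos, the median of the Hif targets was -0.07, -0.03 and 0.19 in wild types and 0.09, 0.11 and -0.15 in heterozygotes. The corresponding medians of the glycolytic enzymes were 0.05, -0.01 and 0.09 in wild types and -0.04, 0.01 and -0.06 in heterozygotes. The medians of the enzymes spanned a narrower range. Their SD between arrays of the same genotype, pooled over both genotypes, was 0.0414, against 0.143 for the Hif targets. Single enzyme genes also varied less around their genotype means, with a median SD of 0.101 against 0.193. Signal level differed too: most enzyme genes had a mean above 1000, and among the tested Hif targets only Bnip3 did. The median SD was 0.0878 over tested probe sets at or above a signal of 1000, and 0.222 over all tested probe sets. The part of signal level in this contrast was not tested. No test of the difference between the lists was made.

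**Figure D4:**
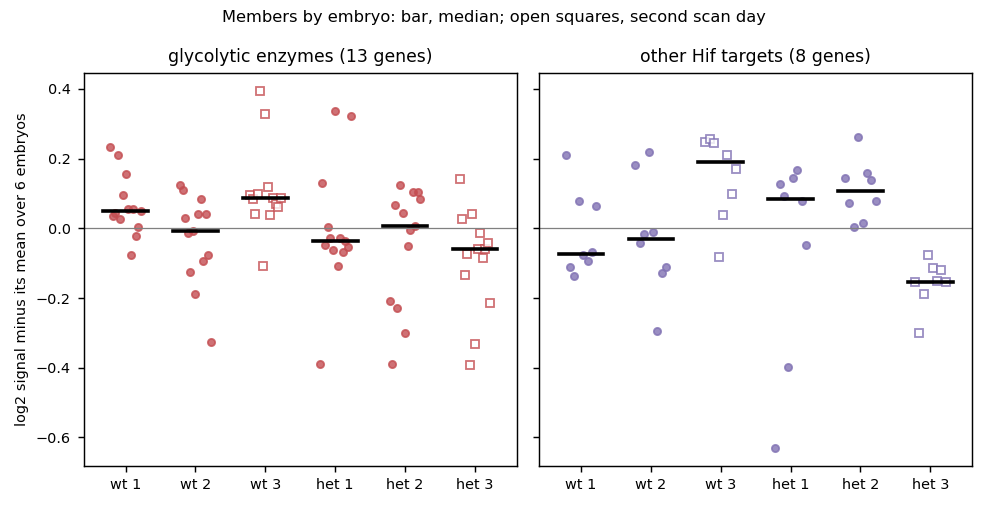
Log2 signal of each tested glycolytic enzyme (left, 13 genes) and other Hif target (right, 8 genes) minus its mean over 6 embryos, by embryo; bars are medians and open squares mark the second scan day. The median of the Hif targets is highest in wild-type embryo 3, at 0.19, and lowest in heterozygous embryo 3, at -0.15.

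The members were also set out by the ACGTG motif, which leaves out GCGTG, and the difference between the 2 groups was not tested. The 20 tested members with a site had a median difference of -0.03, with 11 negative, and ran from -0.42 to 0.43. The 12 tested members without one had a median of -0.14, with 11 negative, and ran from -0.30 to 0.13. Ldha, with 3 sites, differed by 0.01, and Slc16a1 and Slc16a3, with 1 and 2 sites, by 0.43 and -0.41.

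Probe sets of the same gene were used as a second reading. Of 21 members with several tested probe sets, 13 gave differences of a single sign. Those with both signs were Adm, Aldoa, Arnt, Hif1a, Pdk1, Pfkl, Pfkp and Pgk1. The widest disagreements lay among dim probe sets, such as that of Arnt at 0.57 and that of Hif1a at -0.64.

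**Figure D5:**
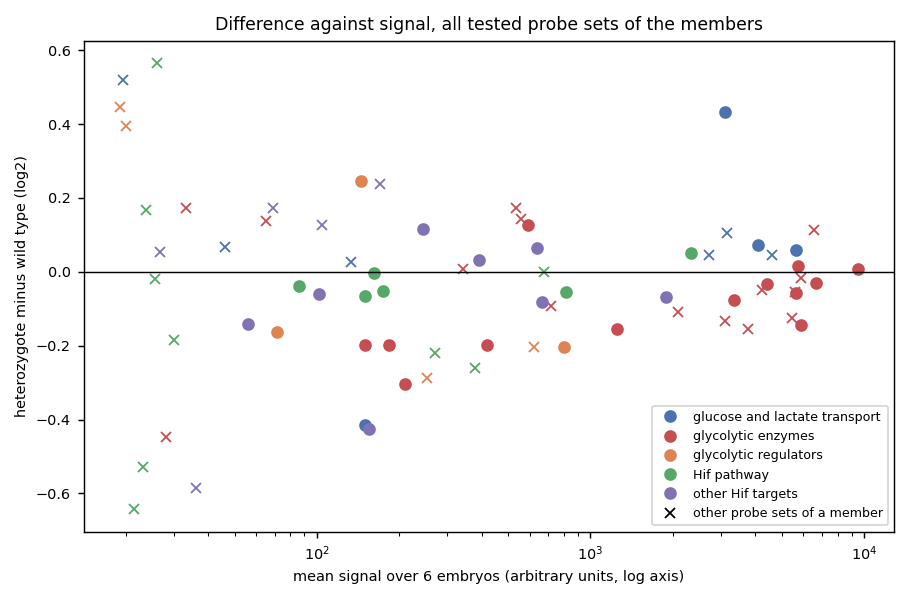
Log2 difference, heterozygote minus wild type, of all 73 tested probe sets of the members against their mean signal (log axis); filled circles are the representative probe sets, coloured by role, and crosses the other probe sets. The differences narrow toward 0 as the signal rises, apart from Slc16a1 at 0.43.

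The wider pathways were read from lists of other genes. Of 17 tested genes of further glycolysis, pyruvate and gluconeogenesis, 14 of the pentose phosphate and glycogen pathways, 12 of the Hif pathway and 27 further Hif targets, 0 passed in either direction (smallest limma adjusted p = 0.731). At an unadjusted p under 0.05 these lists held 0, 1, 0 and 0 higher and 1, 3, 1 and 0 lower genes, in the same order. Of all tested probe sets, 3.01% were higher and 3.21% lower at this unadjusted limma threshold. The median differences of the lists were -0.03, -0.08, -0.08 and 0.01.

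The smallest p in the pentose phosphate and glycogen list belonged to Pgls and Pgd, successive enzymes of the oxidative pentose phosphate branch. Pgls was at 484, 427 and 403 in wild types and at 340, 382 and 333 in heterozygotes (-0.31, SE 0.11, limma adjusted p = 0.731). Pgd was at 3220, 3296 and 3389 against 2845, 2966 and 3055 (-0.16, SE 0.06, adjusted p = 0.746 in limma). In both genes every heterozygote lay below every wild type, on both scan days.

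Of the further glycolysis genes, Pck2, mitochondrial phosphoenolpyruvate carboxykinase, differed by -0.43 (SE 0.17, limma adjusted p = 0.774) and Pgam2, the muscle mutase, by 0.20 (SE 0.15). Of the Hif pathway genes, Hif3a, an alpha subunit with inhibitory forms, was at 92.2, 112 and 101 in wild types and at 86.8, 56.8 and 73.5 in heterozygotes (-0.50, SE 0.19, adjusted p = 0.771 in limma), without overlap. Cited2, a Hif-induced inhibitor of Hif transactivation, differed by -0.17 (SE 0.08). Of the further Hif targets, the growth factor gene Pdgfb differed by -0.62 (SE 0.32) and Stc2, a secreted glycoprotein gene, by -0.32 (SE 0.17).

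Markers of several tissues were set beside these results, and none of those named here passed the test. The summed signal of the neural tube markers was 2414 to 2570 in wild types and 1645 to 2165 in heterozygotes, with 6 of 9 markers lower in every heterozygote and none at 0 (smallest limma adjusted p = 0.457). The 8 neural crest markers summed to 3576 to 3937 in wild types and 2681 to 2999 in heterozygotes, with 2 of 8 lower in every heterozygote (smallest limma adjusted p = 0.0662). The heart markers summed to 9185 to 10769 and 9834 to 12349, with 2 of 8, Tbx20 (0.52) and Myl7 (0.27), higher in every heterozygote (smallest adjusted p = 0.162 in limma). The endothelial markers summed to 916 to 1247 and 1122 to 1141, with Erg (0.44) and Fli1 (0.43) higher and Cdh5 (-0.32) lower in every heterozygote (smallest adjusted p = 0.778 in limma). Of 7 mesoderm and somite markers 6 were measured, and they summed to 1307 to 1926 in wild types and 1190 to 1365 in heterozygotes. Of these Foxc2 (-0.24, limma adjusted p = 0.781) was lower in every heterozygote. Over all tested probe sets, 6.18% were lower and 6% higher in every heterozygote. The part of the embryos' makeup in the members without overlap, Slc16a1, Slc16a3, Tpi1, Pdk1 and Vegfa, was not tested beyond the yolk sac and erythroid fits above.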

How the data were processed

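Whole mouse embryos, 3 wild type and 3 Tcof1+/-, were measured on 6 arrays; titles gave groups and replicate numbers. Each probe set has 1 linear intensity, deposited by the authors. GCOS is named in the submitters' processing notes, without a version or algorithm in the sources used here, and the equal trimmed means were found from the values. Scan day and fluidics module were read per the file headers of the instrument records. The members and gene lists were chosen with earlier results of these data known.

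Of 45101 probe sets 64 controls were left out. Values were taken as log2(signal + 1.87), the constant being the 10th percentile; the authors' scaling was kept, and probe sets in the lowest 40% by mean log2 value, under a signal of about 13.2, were not tested. The remaining 27022 were fitted with limma 3.58.1 in R 4.3.3 (lmFit, eBayes with an intensity trend), genotype as the sole term, two-sided, Benjamini-Hochberg at 0.05. Fold changes are on this scale and understate changes of dim genes. Names came from the platform annotation (34945 probe sets with 1 symbol, 932 with several, 9160 with none), with 0 symbols changed through RefSeq GRCm38.p6 gene identifiers. The fit was tested on simulated data. P-values rest on 3 embryos per genotype, which limits the precision.

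All 6 values were printed for the 12 members with the smallest p and for 12 fixed members (Slc2a1, Hk2, Pfkl, Pgk1, Ldha, Pdk1, Hif1a, Egln3, Vegfa, Bnip3, Car9 and Adm); of each pathway list, the 2 genes with the smallest p were named. Genes outside the rule are said to be named after their values were seen. Alternatives were other pseudocounts, scalings and filters, no trend, array weights, replicate number or scan day as a block, the first scan day alone, an Xist covariate, each array left out and all probe sets of a gene averaged; covariates for yolk sac and erythroid markers were added after the data were seen. Figures were drawn with matplotlib 3.10.9.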

Additional observations from a re-analysis of the deposited data

How the results depend on the processing

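Across 21 alternatives 0 members passed, and the smallest adjusted p (limma) was 0.0742, for Slc16a1 with the yolk sac covariate. Slc16a1 ran from 0.31 to 0.55, Slc16a3 from -0.49 to -0.34, Tpi1 from -0.18 to -0.12, Pdk1 from -0.29 to -0.13 and Vegfa from -0.60 to -0.22, each of 1 sign in all 20 alternatives. With 3 arrays per genotype, differences of the size seen in dim members could not be resolved.

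On the first scan day alone the median difference was -0.0226 for the enzymes and 0.12 for the Hif targets, and Bnip3 and Pfkp turned to 0.18 and 0.0965. With 1 array left out the medians ran from -0.0938 to -0.0428 and from -0.10 to 0.0448. The sign of Ldha turned with array weights (-0.00521), equal medians (-0.00892), quantile normalization (-0.0365) and the Xist covariate (-0.0218), and that of Hif1a with the Xist covariate (-0.00666). With the erythroid covariate, Slc2a1 turned to -0.0392 and Adm to 0.0390. Leaving out 1 array gave ranges across 0 for Adm (-0.309 to 0.0220), Bnip3 (-0.148 to 0.0658), Egln3 (-0.129 to 0.00509), Hk2 (-0.258 to 0.00201), Ldha (-0.0435 to 0.0393) and Pgk1 (-0.0769 to 0.00456). The cause was not tested.

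Over the whole array the 22 calls became 12 on the first scan day, 9 with the Xist covariate, 14 with scan day as a block and 0 without the intensity trend (limma, smallest adjusted p = 0.0555). They ran from 8 to 20 with 1 array left out (wild-type embryo 1 left out, 8; wild-type embryo 2, 11; wild-type embryo 3, 11; heterozygous embryo 2, 12). Tcof1 kept its sign in 18 of 18 alternatives and lost its call in 11 of them: on the first scan day (-0.95), without the trend (-0.88), with scan day as a block (-0.88), with Xist (-0.86) and without any 1 array (-0.95 to -0.77). With the replicate number as a block, 10 probe sets passed, Tcof1 (-0.88) did not, and 0 members did. Same-numbered embryos correlated at -0.08, -0.11 and -0.02 in their deviations from the group means, which gives no sign of pairing; same-numbered embryos share a scan day, and embryos 1 and 2 of both genotypes share the same one.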
